A study of Arabidopsis thaliana with 8 samples.

Results

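Plants kept for 7 days at 4 °C were compared with plants kept for 24 h at 4 °C, to describe how the transcript profile of a plant already in the cold goes on changing during the first week. The material was whole wild-type Arabidopsis thaliana of the Col-0 accession, 10 days old at the start of treatment, and RNA was measured on Affymetrix ATH1 arrays. Both groups grew on agar plates with Gamborg's B5 salts at 24 °C in continuous fluorescent light (100 µmol per square metre and second), the seed having been stratified in the cold for 4 days. They were then moved to 4 °C and dimmer continuous light (25 µmol per square metre and second), so that temperature and light are shared by both groups. Each group holds 2 arrays, and these 4 arrays are part of a time course of 8 that also has 2 arrays after 1 h at 4 °C and 2 from plants harvested under the growth conditions (0 h). The 7-day plants were also older when harvested, and no plants kept warm for the same time were analysed here, so time in the cold and age cannot be told apart. All 22746 probe sets other than the array's own controls were described, and 15012 of them were bright enough to be tested.

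Exposure of Arabidopsis to low, non-freezing temperature sets off cold acclimation, in which the CBF transcription factors switch on cold-regulated (COR) genes within hours. The COR proteins protect membranes and chloroplasts during freezing, and soluble sugars, flavonoids and other protectants accumulate alongside. Growth slows when plants enter the cold and is later resumed at a lower rate, with leaves that develop in the cold differing in composition from leaves formed in the warmth.

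The deposited values are MAS5 signals on a linear scale, with each array scaled to a trimmed mean of about 100.0. The median signal over all arrays was 40.9, and the signal that a probe set had to exceed on at least 2 arrays to be tested (the 40th percentile of the array) lay between 23.2 and 27.98. Across the tested probe sets, which are not independent replicates, the 7-day arrays correlated at r = 0.967 and the 24 h arrays at r = 0.956. A more than 2-fold gap separated the 7-day arrays at 2.13% of probe sets, and the 24 h arrays at 3.55%. Actin control probes near the 3′ end gave more signal than those near the 5′ end, a measure of RNA integrity and labelling, by a ratio of 3.83 and 5.91 at 7 days, against 6.53 and 3.44 at 24 h. Its part in the results was not tested. Of 15 root markers 3 were measured. Their summed signal was 1086 and 818 in the 7-day plants, against 1822 and 1042 in the 24 h plants, nearly all of it from PYK10. RCA, rubisco activase and the 1 measured marker of 13 for green tissue, was at 4887 and 4387 at 7 days, against 4268 and 6255 at 24 h. PAP85, the 1 measured seed marker of 11, stayed between 5.01 and 18.7 on these 4 arrays, and of 10 pollen and flower markers TUA1 was at 169 and 127 at 7 days, against 169 and 169 at 24 h, while AMS stayed under the filter. Root and green tissue were thus both present, as the label of whole plants says. In RNA from whole plants, fewer cells of a type and less RNA per cell cannot be told apart.

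Between 24 h and 7 days the profile kept moving in both directions. Changes are given as the log2 of (signal + 8) at 7 days minus that at 24 h, so that 1 is a 2-fold difference, with the standard error of a limma fit to all 8 arrays. At an adjusted p under 0.05 (limma, Benjamini-Hochberg over all 15012 probe sets), 727 probe sets rose and 670 fell, which is 4.84% and 4.46% of those tested and 9.31% in all. Most of these changes were moderate, with a median of 0.98 among those that rose and -1.03 among those that fell, and the smallest change that was called was 0.60. At least 2-fold changes were reached by 338 of the risers and 361 of the fallers, and at least 4-fold changes by 41 and 26. The median over all tested probe sets was -0.01. The 7-day arrays lay wholly above or below the 24 h arrays for 7780 probe sets (51.8%), among them all 1397 that were called.

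**Figure D1:**
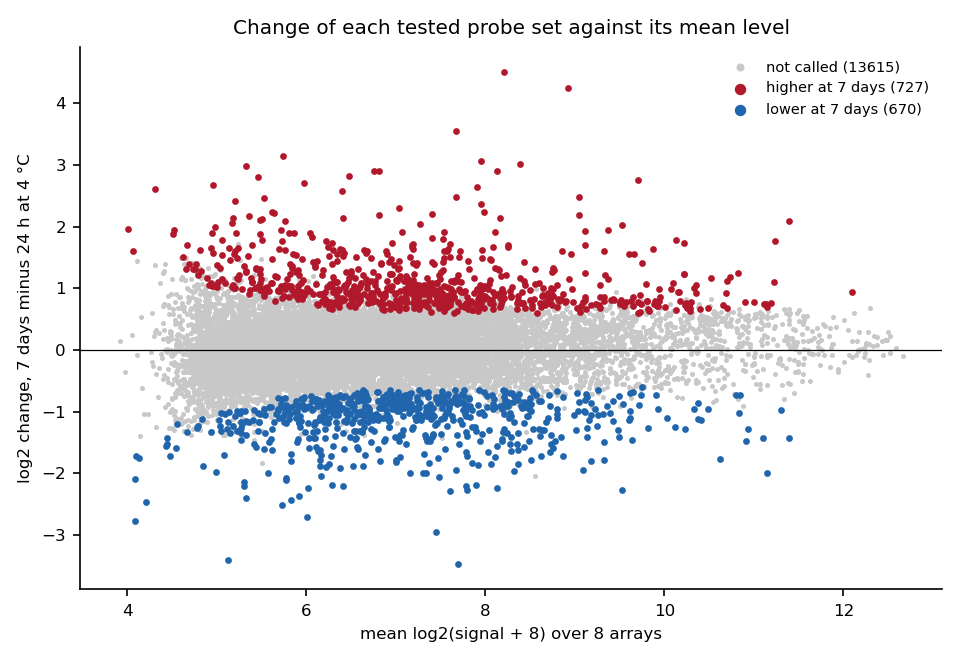
Each point is 1 of the 15012 tested probe sets. The x axis is its mean log2(signal + 8) over 8 arrays and the y axis its log2 change, 7 days minus 24 h at 4 °C. Red points (727) were called higher and blue points (670) lower at 7 days, by limma at an adjusted p under 0.05, and calls occur on both sides among dim and bright probe sets.

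The number of calls rests on few arrays. It was 291 without 7-day replicate 1, 714 without 7-day replicate 2, 718 without 24 h replicate 1 and 599 without 24 h replicate 2, where the lone array left in a group is assumed to vary like the other groups. Without 24 h replicate 1, 454 rose and 264 fell. All 1397 called probe sets kept their direction in each of these fits, and 207 of them (104 higher and 103 lower) were called with each of the 8 arrays left out in turn. That direction was fixed in advance, since the 2 groups do not overlap at any called probe set. Nothing in the labels says whether replicate arrays stem from independent cultures. The p-values therefore reflect the spread of these arrays alone, and that spread may be technical. The median difference between the 7-day and 24 h means was 0.30 in size. Between single arrays it was 0.25 at 7 days and 0.28 at 24 h. Means of 2 arrays vary less than single arrays, so these values are not directly comparable.

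Calls were made at every level of expression. Ordered by mean level, 135 rose and 112 fell among the dimmest 5004 probe sets, 212 and 253 among the next 5004, and 380 and 305 among the brightest 5004, which lie above a signal of 132. A probe set was tested where it exceeded the 40th percentile of the array on any 2 arrays, and 20 of the 670 that fell did so on the 24 h arrays alone and 11 of the 727 that rose on the 7-day arrays alone. Such probe sets had to be high in that group to be tested, so their direction is not a result, and they are marked below where named. A single gene was paired with 8121 of the tested probe sets, of which 388 rose and 316 fell. A further 289 pair with several genes. The annotation used here leaves 6602 without a gene, and of these 318 rose and 344 fell. Only 1172 of the tested probe sets pair with a gene that has a symbol, and 47 of them rose and 57 fell, so most genes below are named by their locus code and without a role. Of the 85 genes with several tested probe sets, 9 had a call in only some of them and 2 had a call in all of them. None had calls in opposite directions. Only genes with several called probe sets could have shown this, and these were few, so no agreement between probe sets is concluded.

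The largest rise of a named gene was that of AT1G19960, with signals of 757 and 729.9 at 7 days, against 56.8 and 55.4 at 24 h, a change of 3.55 ± 0.21 (SE, limma adjusted p = 4.99e-06). The arrays of both groups lay close together and far apart from the other group. Its signals had been 233 and 149 at 0 h and 174 and 185 at 1 h, so it was lowest at 24 h and highest at 7 days. AT5G03350 had signals of 3220.0 and 3954 at 7 days, against 542 and 500.3 at 24 h (2.76 ± 0.25, limma adjusted p = 0.000179). At 0 h and 1 h it was at 522 and 298 and at 668 and 588, near its 24 h level.

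AT5G22580 was also near its early level at 24 h, with 709.9 and 736 at 7 days, against 133 and 161 at 24 h (2.24 ± 0.18, limma adjusted p = 7.45e-05), and 172 and 197 at 0 h. AT5G18600 differed from these in its earlier levels: it had 414 and 407 at 7 days, against 80.5 and 94.5 at 24 h (2.14 ± 0.18, limma adjusted p = 8.82e-05), and 381 and 336 at 0 h, so the 24 h arrays alone were low. AT2G37130 also stood lowest at 24 h, with 547 and 294 at 7 days, against 97.6 and 32.4 at 24 h (2.65 ± 0.38, limma adjusted p = 0.00236) and 393 and 445 at 0 h. Its arrays were far apart within both groups. AT5G24210 had 388 and 392 at 7 days, against 49.6 and 80.9 at 24 h, a change of 2.48 ± 0.22 (limma adjusted p = 0.000196).

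The other 6 of the 12 largest rises were AT5G52760 (2.67), AT1G19530 (2.58), AT3G60420 (2.31), AT3G47480 (2.18), AT3G18250 (2.14) and AT1G21520 (2.117). AT5G52760 was dim at 24 h, with 54.5 and 54.8 at 7 days, against 3.18 and 0.707 at 24 h. All 12 had a limma adjusted p of at most 0.00384, and 11 were called with each array left out and under every other setting tried. AT3G18250 was not called without 7-day replicate 1 (adjusted p = 0.0593). In 9 of the 12 both 7-day arrays were above the other 6 arrays of the time course, and in 10 both 24 h arrays were below the other 6. The genes were chosen on the difference between these groups, which fixes part of that order.

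The largest fall of a named gene was that of AT1G20030, with signals of 3.06 and 4.17 at 7 days, against 117 and 114 at 24 h (-3.41 ± 0.38, limma adjusted p = 0.000653). At 7 days it was well under the level needed for testing, and its signals of 12.7 and 37.6 at 0 h and 17.62 and 36.2 at 1 h were also below both 24 h arrays. AT1G51090 fell by 2.71 on the log2 scale, with 56.9 and 49.0 at 7 days, against 403 and 375 at 24 h (SE 0.28, limma adjusted p = 0.000438). Its 7-day arrays were still above its 0 h arrays, which were at 14.9 and 20.5.

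AT3G55760 had 70.9 and 62.8 at 7 days, against 299 and 374 at 24 h (-2.20 ± 0.21, limma adjusted p = 0.000293), and 29.1 and 37.8 at 0 h. MSRB6, a methionine sulfoxide reductase that repairs oxidized methionine in proteins, had 51.9 and 67.9 at 7 days, against 342 and 294 at 24 h (-2.27 ± 0.28, limma adjusted p = 0.000927). Unlike the others named so far among the falls, it had been as high before the cold, at 282 and 435 at 0 h, so that it was low at 7 days alone. AT5G62210 had 174 and 193 at 7 days, against 1093 and 708 at 24 h (-2.21 ± 0.37, limma adjusted p = 0.00542).

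The other 7 of the 12 largest falls were AT2G24560 (-2.78), AT1G10770 (-2.47), AT2G22590 (-2.40), AT1G32860 (-2.24), AT2G39850 (-2.21), AT4G36010 (-2.21) and LEA4-5 (-2.09), which is described with the cold-protective genes below. AT2G24560, AT1G10770 and LEA4-5 passed the filter through their 24 h arrays alone, so that a fall was the direction in which they could be called. The limma adjusted p of the 12 ran between 0.000293 and 0.0150. AT1G10770 (0.0546) and AT5G62210 (0.0586) lost their call without 7-day replicate 1. In 10 of the 12 both 24 h arrays were above the other 6 arrays of the time course. The exceptions were MSRB6 and AT2G39850, which had been at 37.9 and 69.0 at 0 h. The choice of genes on the difference between these groups fixes part of that order. For AT2G24560, AT1G10770 and LEA4-5 the filter does so too.

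**Figure D2:**
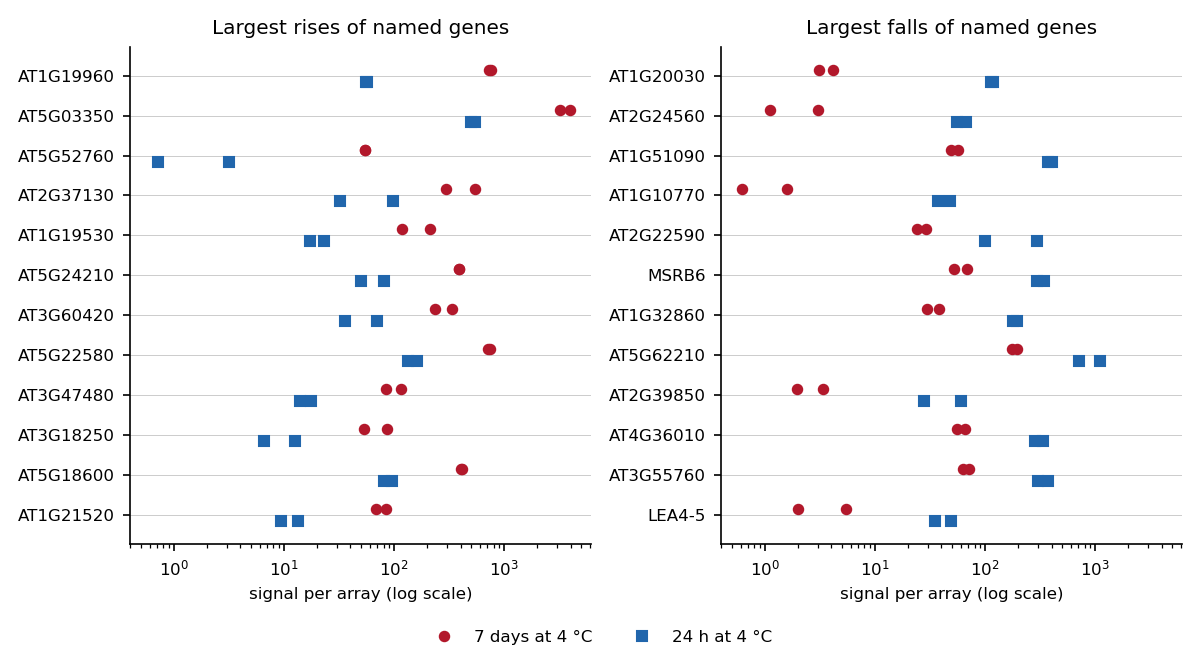
Signals per array (log scale) of the 12 genes with the largest rises (left) and the 12 with the largest falls (right), 7 days as red circles above 24 h as blue squares. The 2 arrays of each group do not overlap with those of the other group for any of the 24 genes, a condition of their choice.

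Larger changes than these were seen at probe sets without a gene name here. Probe set 266385_at had 3486 and 4048 at 7 days, against 199 and 124 at 24 h (4.51 ± 0.23, limma adjusted p = 1.95e-06), and 79.2 and 80.3 at 0 h. Probe set 262832_s_at had 3911 and 3420.0, against 184 and 186 (4.25 ± 0.18, adjusted p = 4.41e-07). In the other direction, 245306_at had 164 and 152 at 7 days, against 2074 and 1639 at 24 h (-3.48 ± 0.19, limma adjusted p = 2.68e-06), and 262113_at had 70.9 and 48.4, against 617 and 415 (-2.95 ± 0.33, adjusted p = 0.000617).

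Gene groups were described from 28 lists of known genes of the cold response, metabolism, growth, defence and photosynthesis. Only 361 of their genes have a probe set of their own in the annotation used here, and CBF1, CBF2, CBF3, RD29A, KIN1, CCA1, LHY, PR1, PR2, PR5, FLC and VIN3 are among those not analysed here by name. Of the 292 list genes that were tested, 13 rose and 27 fell (13.7%). Over all tested probe sets 9.31% were called, and at 1 value per gene 699 of 8006 genes. The lists were chosen with earlier results of these data known, so the size of their share is not a result. The 27 falls include UGT78D3, SWEET10, LEA4-5 and EXLA3, which passed the filter through the 24 h arrays alone. Their direction is not a result, and they add to the share and to the number of falls. Of the 22 lists with at least 3 tested genes, 7 had calls only downwards, 4 only upwards, 4 in both directions and 7 had none. The counts of each list below stand beside 4.84% that rose and 4.46% that fell over all tested probe sets. The lists with the lowest medians were flavonoid enzymes, ribosome biogenesis, cold-protective proteins and sugar metabolism. Those with the highest medians were calcium and touch genes, autophagy, amino acid breakdown and pigment synthesis. Over all lists the number of calls was 6 without 7-day replicate 1, 18 without 7-day replicate 2, 16 without 24 h replicate 1 and 14 without 24 h replicate 2.

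**Figure D3:**
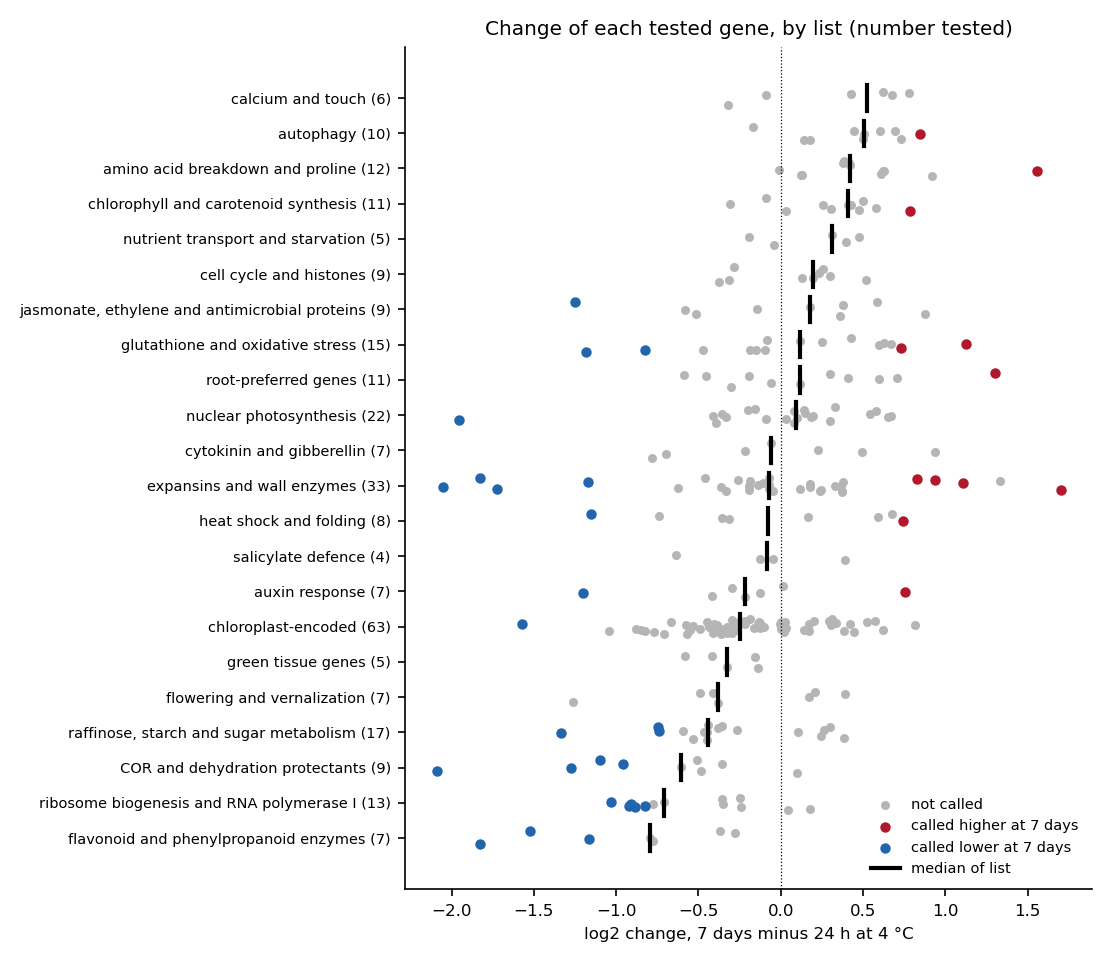
Log2 change, 7 days minus 24 h at 4 °C (x axis), of each tested gene of the 22 lists with at least 3 tested genes (rows, number tested in brackets), ordered by their median (black bar). Red genes were called higher and blue genes lower at 7 days, and grey genes were not called. The median over all tested probe sets was -0.01.

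Several cold-protective transcripts fell between 24 h and 7 days, while COR47, LTI30 and TIL stayed above their 0 h levels. Of 9 tested genes for COR proteins and dehydration protectants 0 rose and 4 fell, with a list median of -0.61. COR47, a dehydrin, had signals of 3558 and 2659 at 7 days, against 5963 and 9336 at 24 h (-1.28 ± 0.28, limma adjusted p = 0.0173). LTI30, another cold-induced dehydrin, had 2516 and 2396 at 7 days, against 5421 and 5115 at 24 h (-1.10 ± 0.29, limma adjusted p = 0.0355). For both genes all 7-day arrays were below all 24 h arrays, as at every probe set called lower. They were far above 0 h, where COR47 was at 752 and 962 and LTI30 at 192 and 85.9.

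TIL, a lipocalin of the plasma membrane that is needed for tolerance of temperature stress, had 1575 and 1532 at 7 days, against 2907 and 3140.2 at 24 h (-0.96 ± 0.18, limma adjusted p = 0.00915), and 704 and 834 at 0 h. LEA4-5, a late embryogenesis abundant protein, had signals of 5.48 and 1.99 at 7 days, against 48.6 and 35.2 at 24 h (-2.09 ± 0.44, limma adjusted p = 0.0150), and 8.46 and 2.87 at 0 h. LEA4-5 exceeded the level needed for testing on the 24 h arrays alone, so its direction was fixed by the filter, and 3 falls remain in the list without it.

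COR15A, whose product protects the chloroplast envelope, did not pass the test. It had 4944 and 4316 at 7 days, against 4523 and 7758 at 24 h (-0.36 ± 0.60, limma adjusted p = 0.763), and 1 of the 24 h arrays lies between the 7-day arrays. COR15B, its tandem copy, had 2655 and 2345 at 7 days, against 2931 and 4178 at 24 h (-0.49 ± 0.41, limma adjusted p = 0.507). At 0 h, COR15A had been at 31.6 and 19.7 and COR15B at 39.3 and 72.0. At 1 h, COR15A was at 10.1 and 104 and COR15B at 48.0 and 157, a spread that enters their standard errors. RD2 just missed the threshold at -0.61 (limma adjusted p = 0.0505), with 1345 and 1209 at 7 days, against 1898 and 1992 at 24 h. COR27 (-0.51) and HVA22C (0.10) did not pass.

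With 1 array left out, which makes the fit less precise, calls of this group were lost. The changes then ran between -1.60 and -0.95 for COR47 and between -1.14 and -1.06 for LTI30. They ran between -1.01 and -0.90 for TIL and between -2.31 and -1.88 for LEA4-5. Without 7-day replicate 1 none of the 4 was called (adjusted p 0.0593 to 0.149), and without 7-day replicate 2 only TIL was (0.0686 to 0.133 for the others). Without 24 h replicate 1, LTI30 and LEA4-5 were lost (0.0788 to 0.121), and without 24 h replicate 2, COR47, LTI30 and TIL were lost (0.0536 to 0.113). The median of the list stayed between -0.75 and -0.53 in these fits.

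**Figure D4:**
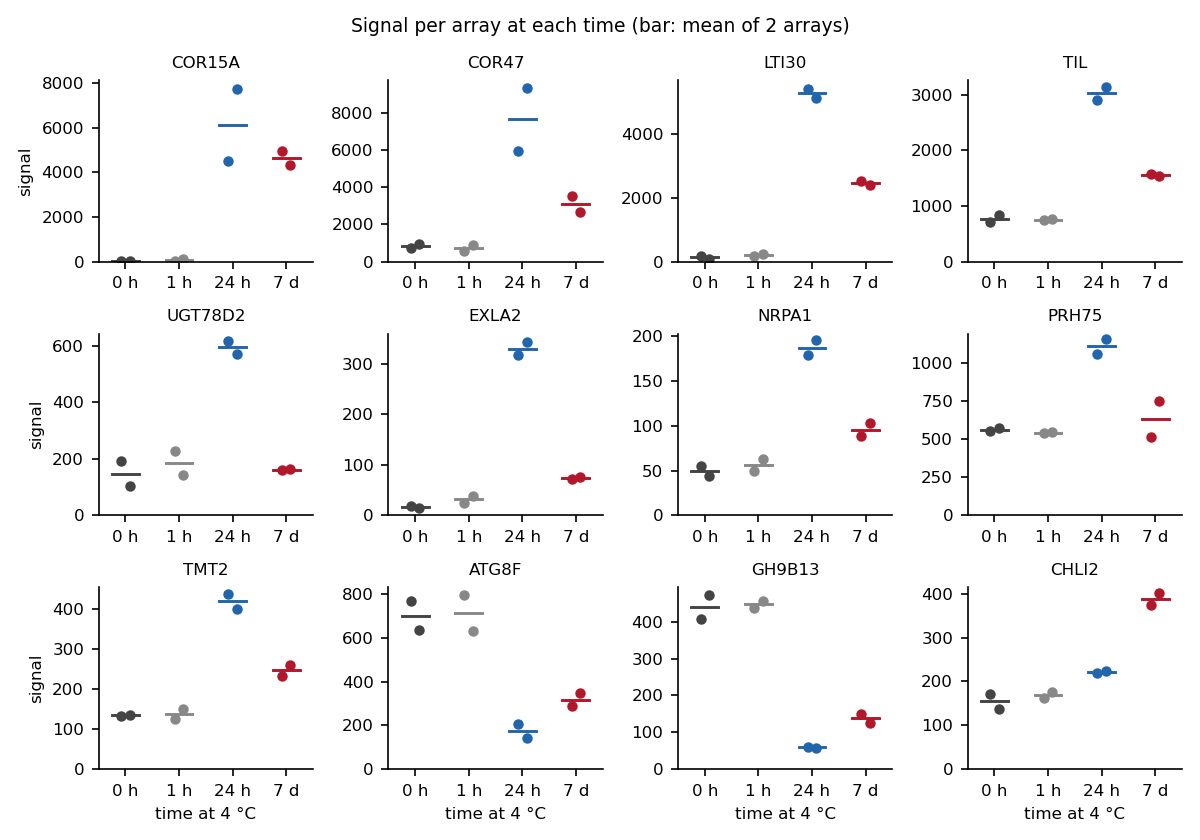
Signals per array (points) and the mean of 2 arrays (bars) at 0 h, 1 h, 24 h and 7 days at 4 °C for 12 genes, each with a y axis of its own that starts at 0. COR47, LTI30, TIL, UGT78D2, EXLA2, NRPA1, PRH75 and TMT2 were highest at 24 h and lower at 7 days, ATG8F and GH9B13 lowest at 24 h, CHLI2 was highest at 7 days, and for COR15A 1 of the 24 h arrays lies between the 7-day arrays.

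Sugar carriers were among the transcripts that fell. Of 17 tested genes for raffinose, starch and sugar metabolism and transport 0 rose and 3 fell. Over all tested probe sets 4.46% fell. The list median was -0.45, and 12 of 17 were below 0. TMT2, which loads monosaccharides into the vacuole, had 233 and 259 at 7 days, against 437 and 399 at 24 h (-0.75 ± 0.18, limma adjusted p = 0.0274). The 7-day arrays remained above the 0 h arrays, which were at 133 and 135. SWEET1, a glucose carrier, had 201 and 157 at 7 days, against 277 and 327 at 24 h (-0.74 ± 0.19, limma adjusted p = 0.0344), and SWEET10, of the same family, had 9.04 and 12.7, against 42.1 and 36.9 (-1.33 ± 0.32, adjusted p = 0.0274). SWEET10 passed the filter through the 24 h arrays alone, so that it could be called in no other direction, and 2 falls remain in the list without it.

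SWEET11, a sucrose exporter used in phloem loading, was at -0.53 and SWEET17, a fructose carrier of the vacuole, at -0.60; neither passed (limma adjusted p = 0.131 and 0.115). The starch genes that were tested (AMY1, PWD, DPE1, APL3 and SBE2.2) lay between -0.45 and 0.39 with no call. None of the 3 calls was kept without any 1 of the 4 arrays compared (adjusted p 0.0631 to 0.165), and SWEET1 was also lost without either 1 h array (0.0550 and 0.0554). The list median was -0.24 without 24 h replicate 2.

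Transcripts of 3 enzymes that attach a sugar or an acyl group to flavonoids fell. Of 7 tested genes of flavonoid and phenylpropanoid synthesis 0 rose and 3 fell, and all 7 changes were below 0, with a median of -0.79. UGT78D2, the glucosyltransferase that adds a sugar to position 3 of flavonols and anthocyanidins, had 160.0 and 163 at 7 days, against 617 and 571 at 24 h (-1.83 ± 0.28, limma adjusted p = 0.00305). Its 7-day arrays were within the range of the 0 h arrays (192 and 105). UGT78D3, a flavonol arabinosyltransferase, had 21.4 and 12.2 at 7 days, against 72.5 and 53.3 at 24 h (-1.52 ± 0.38, limma adjusted p = 0.0301). UGT78D3 was bright enough for testing on the 24 h arrays alone, which fixed its direction, and 2 falls remain in the list without it.

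AT5MAT, which malonylates anthocyanins, had 17.2 and 27.6 at 7 days, against 43.4 and 79.5 at 24 h (-1.16 ± 0.31, limma adjusted p = 0.0394). DFR, dihydroflavonol reductase of the anthocyanin branch, had 55.1 and 71.5 at 7 days, against 109 and 121 at 24 h and did not pass (-0.79, limma adjusted p = 0.202). UF3GT, an anthocyanin xylosyltransferase, was at -0.77 (limma adjusted p = 0.174), and UGT78D1 and HCT at -0.37 and -0.28. UGT78D2 was called with each array left out. UGT78D3 was lost without any 1 of the 4 arrays compared (adjusted p 0.0679 to 0.146). AT5MAT was lost without 7-day replicate 1 or 2, 24 h replicate 2 or either 1 h array (0.0526 to 0.231).

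Genes for the making of ribosomes were among those that fell. Of 13 tested genes of ribosome biogenesis and RNA polymerase I 0 rose and 5 fell, 11 of 13 were below 0 and the median was -0.71. NRPA1 and NRPA2 encode the largest subunits of RNA polymerase I, the enzyme that transcribes the ribosomal RNA precursor. NRPA1 had 88.3 and 103 at 7 days, against 179 and 195 at 24 h (-0.91 ± 0.20, limma adjusted p = 0.0198), and NRPA2 had 117 and 169.6, against 298 and 294 (-1.03 ± 0.20, adjusted p = 0.0111). The 7-day arrays of NRPA1 stayed above its 0 h arrays (55.0 and 43.9), and 1 of the 7-day arrays of NRPA2 was close to 0 h (115 and 114).

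PRH75, a nucleolar RNA helicase, had 518 and 755 at 7 days, against 1065 and 1163 at 24 h (-0.82 ± 0.20, limma adjusted p = 0.0284). YAO, a nucleolar WD-repeat protein, was at -0.92 (limma adjusted p = 0.0385) and AT5G41190, listed as NOB1, the endonuclease that trims the small-subunit ribosomal RNA, at -0.88 (adjusted p = 0.0261). IMP4, of the particle that processes the same precursor, had 218 and 274 at 7 days, against 410.5 and 399 at 24 h and missed the threshold (-0.71, limma adjusted p = 0.0573). In each of the 5 genes that fell, 7-day replicate 1 was the lower of the 7-day arrays, as for YAO (113 and 191 at 7 days, against 318 and 257 at 24 h).

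Without 7-day replicate 1 none of the 5 was called (adjusted p 0.0929 to 0.266) and the list median was -0.36. NRPA2 alone was called without 24 h replicate 1 or 2 (0.0543 to 0.161 for the others), with a list median of -0.48 without replicate 1, and all but NRPA1 (0.0512) were called without 7-day replicate 2. The subunits of RNA polymerase III that were tested, NRPC1 (0.04) and NRPC2 (-0.36), did not pass, and the 1 tested ribosomal protein gene, PGY1, had 2829 and 3374 at 7 days, against 1902 and 2349 at 24 h (0.55, limma adjusted p = 0.114).

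Genes of amino acid breakdown and of autophagy lay mostly above their 24 h level at 7 days, but 1 gene of each list passed the test. Of 12 tested genes for amino acid breakdown and proline metabolism 1 rose and 0 fell, 11 of 12 were above 0 and the median was 0.42. MCCA, a subunit of the mitochondrial methylcrotonyl-CoA carboxylase of leucine breakdown, had 69.0 and 30.4 at 7 days, against 19.8 and 4.28 at 24 h (1.56 ± 0.39, limma adjusted p = 0.0294). The arrays of each group were far apart, although the groups did not overlap, as at every called probe set. MCCA had been at 77.6 and 96.0 at 0 h. MCCB, the other subunit, had 77.6 and 118 at 7 days, against 63.3 and 34.2 at 24 h and just missed the threshold (0.92 ± 0.27, limma adjusted p = 0.0576). IVD, the dehydrogenase of the preceding step, was at 0.42 (limma adjusted p = 0.303) and ALDH6B2, which acts in valine breakdown, at 0.63 (adjusted p = 0.0828).

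Of 10 tested autophagy genes 1 rose and 0 fell, 9 of 10 were above 0 and the median was 0.50. ATG8 proteins coat the growing autophagosome membrane. ATG8F had 289 and 346 at 7 days, against 206 and 143 at 24 h (0.85 ± 0.22, limma adjusted p = 0.0355), and both groups were far under its 0 h signals of 769 and 634. ATG8D (0.73, limma adjusted p = 0.0580) and ATG8C (0.60, adjusted p = 0.0655) missed the threshold by little. ATG8E had 103 and 72.1 at 7 days, against 64.6 and 53.0 at 24 h (0.50, limma adjusted p = 0.211). ATG8H was not resolved, with 36.9 and 25.9 at 7 days, against 39.7 and 4.16 at 24 h (0.70 ± 0.47, limma adjusted p = 0.395).

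These calls were also lost in some of the less precise fits with 1 array left out. The call of MCCA did not hold without 7-day replicate 1 (adjusted p = 0.228) or 24 h replicate 2 (0.162), and ATG8F without 24 h replicate 2 (0.199), 7-day replicate 1 (0.102) or 7-day replicate 2 (0.160). The autophagy median was 0.29 without 24 h replicate 2, and ATG8H was called higher without 24 h replicate 1 and stood at -0.29 without 24 h replicate 2.

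Photosynthesis genes encoded in the nucleus held a single call, in an antenna protein. Of 22 tested genes 0 rose and 1 fell, with a median of 0.09, beside 9.31% of all tested probe sets called either way. The one that fell was LHCB4.3, an isoform of the minor antenna protein CP29 of photosystem II, with 69.9 and 41.5 at 7 days, against 279 and 193 at 24 h (-1.95 ± 0.40, limma adjusted p = 0.0133). LHCB4.2, another CP29 isoform, lay the other way, with 2745 and 2265 at 7 days, against 1398 and 1754 at 24 h, and did not pass (0.67 ± 0.24, limma adjusted p = 0.0998). Leaving out either of the 0 h arrays gave it a call. The remaining isoform, LHCB4.1, was at 0.08. LHCB4.3 lost its call without 7-day replicate 2 (adjusted p = 0.0886) or 24 h replicate 1 (0.0757), and the list median was -0.07 without 24 h replicate 1.

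Of 11 tested genes of chlorophyll and carotenoid synthesis 1 rose and 0 fell, 9 of 11 were above 0 and the median was 0.41. CHLI2, a subunit of the magnesium chelatase that commits porphyrins to chlorophyll, had 373 and 401 at 7 days, against 219 and 223 at 24 h (0.79 ± 0.18, limma adjusted p = 0.0222). Its level was the highest of the time course, with 171 and 138 at 0 h. CHLM, the next enzyme of that branch, was at 0.47 (limma adjusted p = 0.142), and PORB, a protochlorophyllide reductase, had 2952 and 3369 at 7 days, against 2041 and 2171 at 24 h (0.58, adjusted p = 0.268). CHLI2 was lost without any 1 of the 4 arrays compared (adjusted p 0.0781 to 0.0912).

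Of 63 tested chloroplast-encoded genes 0 rose and 1 fell, with 44 below 0 and a median of -0.25. Over all tested probe sets 9.31% were called either way. psbD, the D2 protein of the photosystem II reaction centre, had 159.7 and 177 at 7 days, against 503 and 529 at 24 h (-1.57 ± 0.32, limma adjusted p = 0.0145). rbcL, the large subunit of rubisco, had 748 and 609 at 7 days, against 423 and 714 at 24 h and did not pass (0.29 ± 0.42, limma adjusted p = 0.717). The mean level of these transcripts differed within groups too: the mean log2 signal of the 68 tested plastid probe sets was 8.52 and 8.60 at 7 days, against 8.82 and 8.62 at 24 h, and it was 9.32 and 8.63 on the 1 h arrays. psbD was lost without any 1 of the 4 arrays compared (adjusted p 0.0544 to 0.103), and the list median was -0.13 without 24 h replicate 1.

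Cell wall genes changed in both directions. Of 33 tested expansins and wall enzymes 4 rose and 4 fell, with a median of -0.07. Expansin-like A genes were among the falls. EXLA2 had 71.4 and 75.4 at 7 days, against 317 and 343 at 24 h (-2.05 ± 0.23, limma adjusted p = 0.000617), and its 7-day arrays remained above its 0 h arrays (17.9 and 14.5). EXLA1 had 101 and 62.6 at 7 days, against 337 and 273 at 24 h (-1.83 ± 0.35, limma adjusted p = 0.0102), and EXLA3 had 11.6 and 1.69, against 36.9 and 38.2 (-1.72 ± 0.40, adjusted p = 0.0234). EXLA3 passed the filter through the 24 h arrays alone and could be called in no other direction, and 3 falls remain in the list without it. These 3 genes are near relatives whose probes may share signal, which was not tested. XTH18, a xyloglucan-remodelling enzyme, was the remaining fall (-1.17, limma adjusted p = 0.0288).

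EXPA8, an alpha-expansin that loosens walls, had 165 and 88.5 at 7 days, against 20.7 and 46.9 at 24 h (1.702 ± 0.39, limma adjusted p = 0.0222). GH9B13, an endoglucanase, had 151 and 125 at 7 days, against 60.2 and 58.6 at 24 h (1.11 ± 0.18, limma adjusted p = 0.00499). Both had been higher before the cold: EXPA8 was at 248 and 554 at 0 h and GH9B13 at 406 and 473. EXLB1, an expansin-like B protein, had 198 and 186 at 7 days, against 86.4 and 108 at 24 h (0.94, limma adjusted p = 0.0499), and CSLA03, of a family of mannan synthases, 47.6 and 63.8, against 29.2 and 25.9 (0.83, adjusted p = 0.0326). XTH20 had 351 and 390.2 at 7 days, against 302 and 269 at 24 h and did not pass (0.37, limma adjusted p = 0.466), and it was far above its 0 h signals of 35.5 and 16.1.

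EXLA2 was called with each array left out. EXPA8, EXLB1, XTH18, GH9B13 and CSLA03 were lost without 7-day replicate 1 (adjusted p 0.0527 to 0.209), and EXLA1, EXLA3, EXLB1 and CSLA03 without 7-day replicate 2 (0.0729 to 0.163). Without 24 h replicate 1, EXPA8, EXLA1, EXLA3, EXLB1 and CSLA03 were lost (0.0582 to 0.188), without 24 h replicate 2, EXLA3, EXLB1, XTH18 and CSLA03 (0.0871 to 0.167), and without either 1 h array EXLB1 and CSLA03 (0.0542 to 0.0661).

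Hormone genes were few and moved in both directions. Of 7 tested auxin response genes 1 rose and 1 fell, with a median of -0.22, and both encode enzymes of the GH3 family, which conjugate auxin to amino acids. GH3.3 had 18.9 and 33.1 at 7 days, against 76.4 and 61.3 at 24 h (-1.20 ± 0.28, limma adjusted p = 0.0237), whereas WES1 (GH3.5) had 206 and 186, against 115 and 111 (0.75 ± 0.19, adjusted p = 0.0315). The call of GH3.3 did not hold without 24 h replicate 1 (adjusted p = 0.106) or 2 (0.0555) or 7-day replicate 1 (0.166), and WES1 without any 1 of the 4 arrays compared (0.0761 to 0.163). None of the 7 tested cytokinin and gibberellin genes passed (median -0.06), with RR16, a response regulator of cytokinin, at 0.94 and SPY, a repressor of gibberellin signalling, at -0.69 (limma adjusted p = 0.197 and 0.0911). The 1 measured abscisic acid gene did not reach the level needed for testing.

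Regulators of the cold response and of daily rhythm were hardly covered. WRKY53, a transcription factor of senescence and defence, had 47.3 and 54.6 at 7 days, against 19.0 and 23.0 at 24 h (1.02 ± 0.25, limma adjusted p = 0.0274), a call lost without any 1 of the 4 arrays compared (adjusted p 0.0572 to 0.123). STZ, the zinc finger repressor also called ZAT10, had 110.1 and 88.1 at 7 days, against 141 and 126 at 24 h and did not pass (-0.41 ± 0.22, limma adjusted p = 0.267). Of the clock genes, TIC, a nuclear regulator of the clock, fell, with 275 and 172 at 7 days, against 410.3 and 417 at 24 h (-0.90 ± 0.23, limma adjusted p = 0.0330), and was lost without 7-day replicate 2 (0.182) or 24 h replicate 1 (0.0990) or 2 (0.117). GI, GIGANTEA, which links the clock to flowering, had 309 and 356 at 7 days, against 568 and 491 at 24 h. Its groups did not overlap, as at 51.8% of all tested probe sets, and it did not pass (-0.66 ± 0.43, limma adjusted p = 0.374). None of the 7 tested flowering and vernalization genes passed (median -0.38), the largest change being that of ATC, a relative of TERMINAL FLOWER 1, at -1.26 (limma adjusted p = 0.0606).

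Stress and defence lists held calls in both directions. Of 15 tested genes of glutathione and oxidative stress 2 rose and 2 fell (median 0.12). The glutathione transferase GSTU18 had 109 and 80.8 at 7 days, against 37.8 and 39.8 at 24 h (1.12 ± 0.20, limma adjusted p = 0.00757), while GSTU22 had 39.4 and 23.7, against 119 and 53.0 (-1.19 ± 0.34, adjusted p = 0.0488). VTC4, an enzyme of ascorbate synthesis, rose (0.73, limma adjusted p = 0.0359) and NDB2, an external NAD(P)H dehydrogenase of mitochondria, fell (-0.82, adjusted p = 0.0357). Without 7-day replicate 1 none of the 4 was called (adjusted p 0.0731 to 0.0989), without 7-day replicate 2 only GSTU18 was (0.155 to 0.232 for the others), without 24 h replicate 1 likewise (0.0652 to 0.261), and VTC4 was lost without 24 h replicate 2 (0.163). GSTU22 and VTC4 were also lost without either 1 h array (0.0579 to 0.0650).

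Of 8 tested heat shock and folding genes 1 rose and 1 fell (median -0.07). Fes1A, a co-factor of Hsp70, had 46.7 and 79.0 at 7 days, against 184 and 115 at 24 h (-1.15 ± 0.27, limma adjusted p = 0.0225), and CRT1b, a calreticulin of the endoplasmic reticulum, had 1703 and 1479, against 859 and 1039.6 (0.74 ± 0.18, adjusted p = 0.0279). Fes1A was lost without 7-day replicate 1 (adjusted p = 0.173) or 24 h replicate 1 (0.126), and CRT1b without any 1 of the 4 arrays compared (0.0534 to 0.161). Of 9 tested jasmonate, ethylene and antimicrobial genes 0 rose and 1 fell (median 0.18). The thionin THI2.2 had 137 and 147 at 7 days, against 449 and 270.0 at 24 h (-1.25 ± 0.35, limma adjusted p = 0.0453), a call lost without any 1 of the 4 arrays compared or 1 h replicate 2 (0.0501 to 0.218). PDF2.1, a defensin, had 558 and 271 at 7 days, against 212 and 204 at 24 h (0.88 ± 0.31, limma adjusted p = 0.0975), with 1 high array at 7 days, and it was called higher without 7-day replicate 2. None of the 4 tested salicylate defence genes passed (median -0.08).

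Calls were also absent among 9 tested cell cycle and histone genes (median 0.20), 5 nutrient transport and starvation genes (0.31) and 6 calcium and touch genes (0.52). The calcium and touch list has 189 entries, of which 12 genes were measured, so most of it was not seen. In the last list CML41, a calmodulin-like protein, was at 0.78 and GLR2.7, a glutamate receptor-like channel, at 0.68 (limma adjusted p = 0.112 and 0.167), and the median was 0.08 without 24 h replicate 1. No gene of membrane lipids and wax or of the water channels was tested.

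The root and shoot lists are given beside these changes, and in them too fewer cells of a type and less RNA per cell cannot be told apart. Of 11 tested root-preferred genes 1 rose and 0 fell (median 0.12). AT5G64120, listed as peroxidase PRX71, had 246 and 112 at 7 days, against 66.0 and 59.5 at 24 h (1.304 ± 0.29, limma adjusted p = 0.0191), a call that did not hold without 7-day replicate 1 (adjusted p = 0.125) or 24 h replicate 1 (0.0605) or 2 (0.0892). PYK10, the main beta-glucosidase of endoplasmic reticulum bodies in roots, had 998 and 731 at 7 days, against 1729.7 and 959 at 24 h and did not pass (-0.59 ± 0.27, limma adjusted p = 0.192). Its 0 h signals were 2368 and 2177. None of the 5 tested green tissue genes passed, all of them below 0 (median -0.33). The part of the tissue balance in the changes of other genes was not tested.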

How the data were processed

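The authors deposited 1 linear signal intensity per probe set and array, computed with MAS5 according to the submitters' processing notes. Its version and detection calls were not given there. Probe sets were named through the platform's annotation and RefSeq (TAIR10.1, names only): of 22746, 13513 pair with 1 gene (13436 of them matched in RefSeq), 503 with several and 8730 are not listed. Log2(signal + 8) of all 8 arrays was fitted with limma 3.58.1 in R 4.3.3 (lmFit, eBayes with an intensity trend), on the 15012 probe sets that, on 2 or more arrays, were brighter than the array's 40th percentile. Calls are at a Benjamini-Hochberg adjusted p under 0.05. An exact permutation test of 2 arrays against 2 cannot give a p under 0.333.

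Members and lists were chosen with earlier results of these data known. The genes named are the 12 largest rises and falls among called probe sets of 1 gene whose groups do not overlap, up to 6 called members of each list, up to 2 unnamed probe sets each way and 27 genes named whatever their result, of which 12 were not measured. Other genes named were chosen after their values were seen. On simulated arrays with 50 probe sets at each change, the fit called 46 of those at 2, 15 at 1, 10 at -1 and 43 at -2 on the log2 scale, and 4 of 14812 unchanged ones. The simulated noise was independent between probe sets and arrays, and fewer probe sets were changed than were called in the data. The simulation therefore does not give the rate of false calls in these data. Alternatives were the pseudocount, filter, normalization, trend, arrays fitted, a replicate block and leaving out each array.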

Additional observations from a re-analysis of the deposited data

How the results depend on the processing

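The 1397 calls became 808 with no filter on dim probe sets, and ran between 291 and 1354 with 1 array left out. Among the list genes, 40 calls became 20 with no filter and 26 with no intensity trend, and ran between 6 and 41 with 1 array left out. Other settings (equal medians, quantile normalization, pseudocounts of 1, 16 and 32, a filter or fit on the 4 arrays compared, no trend) gave 1005 to 1428 calls over all probe sets. Without 24 h replicate 1, 63.2% of the calls were higher, against 52.0% with all arrays. All called probe sets that were tested kept their direction in every setting. Their groups do not overlap, so only equal medians or quantile normalization could have changed it. Of the 11 genes named by rule that were not called, 3 changed sign when 1 array was left out: COR15A ran between -0.75 and 0.030, ATG8H between -0.29 and 1.68 and rbcL between -0.080 and 0.66, and the cause was not tested. With 1 value per gene in place of probe sets, 699 of 8006 genes were called. Of the 65 named calls, 26 were kept in every alternative.

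The same-numbered arrays of the 7-day and 24 h groups did not deviate together (r = -0.17 across probe sets), so the numbers are not taken as pairs. Between the other pairs of groups, r was 0.24 to 0.40 among 0 h, 1 h and 24 h, and -0.21 and -0.03 for 7 days with 0 h and 1 h. A replicate block gave 1644 calls and 49 among the list genes. A crossed block, with the numbers of the 7-day arrays exchanged, was chosen after seeing the data and gave 2571. The planned search of promoters for motifs was not run. MAS5 signals carry no count of molecules, so the precision rests on 2 arrays a group, and dim genes such as LEA4-5 lie close to the background at 7 days.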

Other observations

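Further families were described from gene symbols, and the genes named here were chosen after their values were seen. Of 16 tested serine carboxypeptidase-like genes 3 rose and 0 fell, 11 of 16 were above 0 and the median was 0.48, beside -0.01 and 9.31% called either way over all tested probe sets. The family includes proteases and acyltransferases. scpl35 had 829 and 1016 at 7 days, against 425 and 429 at 24 h (1.09 ± 0.21, limma adjusted p = 0.00933), and scpl31 and scpl26 rose as well (1.17 and 0.99). scpl35 was lost without 7-day replicate 2 (adjusted p = 0.0593), scpl26 without 7-day replicate 1 (0.116) or 24 h replicate 1 (0.0846), and scpl31 without either 7-day array or 24 h replicate 2 (0.103 to 0.114). CYP71B23, a cytochrome P450, had 78.9 and 65.6 at 7 days, against 13.8 and 17.0 at 24 h (1.78 ± 0.26, limma adjusted p = 0.00253), and was the 1 call among 10 tested members of its family. It was called with each array left out.

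Of 28 tested UDP-glycosyltransferases, enzymes that attach sugars to small molecules, 0 rose and 4 fell, 21 of 28 were below 0 and the median was -0.24. That median turned to 0.10 with 24 h replicate 1 left out, and was -0.46 with replicate 2 left out. UGT78D3, whose direction was fixed by the filter, and UGT74D1 were lost without 24 h replicate 1 or either 7-day array (adjusted p 0.0681 to 0.175), which leaves 2 of the 4. UGT84A3, which glucosylates phenylpropanoid acids, had 27.5 and 18.8 at 7 days, against 109.6 and 88.4 at 24 h (-1.79 ± 0.24, limma adjusted p = 0.00152). The transcription factor bZIP44 had 53.8 and 53.9 at 7 days, against 241 and 202 at 24 h (-1.88 ± 0.19, limma adjusted p = 0.000371). For both genes all 7-day arrays were below all 24 h arrays, as at every probe set called lower. Both were called with each array left out. BGLU25, of the beta-glucosidase family, fell (-1.36, limma adjusted p = 0.00377) and kept its call with each array left out. BGLU16 of the same family rose (0.88, limma adjusted p = 0.0126), but was lost without 7-day replicate 1 (0.0890) or 24 h replicate 2 (0.0539).

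Calls in further families are listed beside 9.31% of all tested probe sets called either way. Each call named here was lost in some of the less precise fits with 1 array left out. Of 19 tested genes of the citric acid cycle and respiration, ICDH (0.84) and ACLA-3 (0.88) rose and NDB2 (-0.82) fell, but without 7-day replicate 1 none of the 3 was called (limma adjusted p 0.0874 to 0.285), and without any other cold array 1 was. Of 16 trichome birefringence-like genes, TBL36 rose (0.69) and TBL38 fell (-0.83), and both calls were lost when any 1 of the 4 arrays compared or 1 h replicate 1 was left out (0.0511 to 0.160), with TBL36 also lost without 1 h replicate 2 (0.0733). Of 5 subtilases, SBT4.12 (-0.99) and ATSBT5.2 (-0.99) fell. ATSBT5.2 was lost when any 1 cold array was left out (0.0528 to 0.112), and SBT4.12 likewise, except for 24 h replicate 2 (0.0509 to 0.182). Of 11 organelle RNA editing factors PPR596 fell (-1.09) but was lost without either 24 h array or 7-day replicate 1 (0.0530 to 0.186). Of 7 tubulins TUB9 fell (-0.75), and its call was kept without 7-day replicate 2 and lost without any 1 of the other cold arrays (0.0540 to 0.214). None of 31 genes of ubiquitin conjugation and removal, 9 of IQ-domain proteins, 6 of glucosinolate synthesis or 5 of rapid alkalinization factor-like peptides was called by limma.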
